A study of Mus musculus with 46 samples.

Results

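The genes described here encode the proteasome, the complex that degrades proteins marked with ubiquitin. They are the genes of both count tables whose mouse symbol is Psma, Psmb, Psmc, Psmd, Psme or Psmf followed by a number, and 42 genes met this rule, of 17514 genes in the table of the first experiment and 16987 in that of the second. The reference holds 44 such symbols, and Psma8 and Psmb11 have no entry in either table. The 42 genes are 14 core subunits (7 Psma genes and Psmb1 to Psmb7), 3 immunoproteasome subunits (Psmb8, Psmb9 and Psmb10), 20 regulatory genes (6 Psmc and 14 Psmd genes), 4 activators (Psme1 to Psme4) and the inhibitor Psmf1. The Psmd genes include assembly chaperones, such as Psmd5 and Psmd9, beside subunits.

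In the core particle, rings of alpha subunits (Psma) gate a chamber of beta subunits (Psmb), some of which cut the peptide chain. The regulatory particle caps this chamber: its ATPases (Psmc) unfold the substrate, and its other subunits (Psmd) bind the ubiquitin chain, remove it or hold the particle together. In muscle the ubiquitin-proteasome system breaks down contractile proteins, and its ubiquitin ligases are known for their part in atrophy.

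The study compared the androgen response of muscle between C57BL6 mice that were wild type (WT) or knockout (KO) for Actn3, which encodes a Z-disc protein of fast fibres. In the first experiment, males had an orchidectomy (ORX, removal of the testes) or a sham operation when 8 to 10 weeks old, and the gastrocnemius was studied 12 weeks later: 6 libraries each for WT-sham, WT-ORX and KO-sham, and 5 for KO-ORX. In the second, females received an implant with 10 mg of dihydrotestosterone (DHT, a potent androgen) or an empty implant under the skin at 4 to 5 weeks of age, and the spinalis was studied 6 weeks later: 5 libraries each for WT-empty and KO-empty, and 6 each for WT-DHT and KO-DHT. The labels describe 46 samples and 45 of them have a column in the count tables, so the remaining KO-ORX sample was not analysed here. The experiments differ in sex, muscle, age and treatment, and the parts of these in any difference between them cannot be told apart.

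The values are counts of reads per gene from stranded total RNA. A library held between 43.4 and 50.3 M counts in WT-sham (median 47.1), 39.9 and 55.4 in WT-ORX (45.6), 29.5 and 37.5 in KO-sham (34.3) and 26.7 and 48.5 in KO-ORX (41.6). The range was 37.3 to 51.2 M in WT-empty (47.0), 34.8 to 53.9 in WT-DHT (52.0), 42.5 to 47.8 in KO-empty (44.1) and 34.9 to 51.7 in KO-DHT (44.2). The depths of KO-sham and WT-sham do not overlap, with KO-sham the lower. All 42 genes had at least 10 counts in every library, with 77 as the lowest count in the first experiment and 65 in the second. Levels below are CPM, counts per M counts of the TMM-scaled library, and errors of group means are SD. A gene is called when its edgeR p-value, adjusted over all genes of the table (q), is at most 0.01, or at most 0.05 for the interaction of genotype and treatment.

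Actn3 itself checked the genotype labels. Its mean was 6622 CPM in WT-sham, 8867 in WT-ORX, 9669 in WT-empty and 7104 in WT-DHT, and it was 45.7 in KO-sham, 45.3 in KO-ORX, 69.6 in KO-empty and 68.0 in KO-DHT. The log2 fold change of KO against WT was -7.18 in sham, -7.61 in ORX, -7.12 in empty and -6.71 in DHT mice. In WT mice Actn3 rose with ORX (log2 fold change 0.42, q = 0.00199) and fell with DHT (-0.44, q = 8.10e-04).

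KO-empty mouse 61 stood apart before any test. Its summed level of the 3 immunoproteasome genes was 98.5 CPM, and the other KO-empty mice lay between 13.3 and 20.7. In the first experiment, KO-ORX replicate 3 had the highest level of Psmb8 (8.08 CPM) and Psmb9 (6.27 CPM) in its group. Several fold changes of the immunoproteasome genes, Psme1 and Psme2 in females are given with and without mouse 61, as are some other calls that change without it.

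Proteasome genes took a small and even share of the counts. Their mean share was 0.389% in WT-sham, 0.382% in WT-ORX, 0.404% in KO-sham and 0.400% in KO-ORX. It was 0.341% in WT-empty, 0.370% in WT-DHT, 0.350% in KO-empty and 0.377% in KO-DHT. The core genes summed to 1192 ± 29.9 CPM in WT-sham, 1234 ± 66.5 in WT-ORX, 1329 ± 77.1 in KO-sham and 1275 ± 60.8 in KO-ORX. In the second experiment their sums were 980 ± 81.4 in WT-empty, 1020 ± 46.3 in WT-DHT, 995 ± 33.5 in KO-empty and 1079 ± 59.1 in KO-DHT. The regulatory genes summed to 2069 ± 37.0, 1992 ± 45.9, 2170 ± 66.9 and 2008 ± 52.2 CPM in the 4 male groups (WT-sham, WT-ORX, KO-sham, KO-ORX), and to 1838 ± 63.4, 2031 ± 45, 1845 ± 74.2 and 1992 ± 112 CPM in the 4 female groups (WT-empty, WT-DHT, KO-empty, KO-DHT). The regulatory sums of WT-empty (at most 1933 CPM) and WT-DHT (at least 1949) did not overlap. Psmd8 alone held 6.52% of the regulatory counts in WT-empty and 14.1% in WT-DHT. The other 19 regulatory genes had a median log2 fold change of 0.02 with DHT in WT, and 0 of them were called. The activator sums varied more between groups, relative to their size. They were 656 ± 40.8, 521 ± 13.2, 641 ± 26.4 and 522 ± 21.6 CPM in the first experiment. In the second they were 551 ± 10.8, 791 ± 50.7, 496 ± 38.5 and 617 ± 43.0, in the same order of groups. Psme4 alone held most of each activator sum.

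Genes of the same class differed widely in level per length. The length is that of the exons of a gene in the GENCODE M21 annotation, and the ranks hold for this length. Per kilobase, Psma6 (an alpha subunit) had the highest core level, 99.0 CPM in the first experiment and 73.1 in the second, and Psma3, another alpha subunit, had the lowest, 17.9 and 12.2. Among regulatory genes the ATPase gene Psmc3 was highest in the first experiment (84.9 CPM per kilobase) and the ATPase gene Psmc5 in the second (68.3). Psmd9, which encodes a chaperone of regulatory assembly, was lowest in both (2.08 and 2.0). Psme4, the gene of the PA200 activator, reached 63.8 and 68.1 CPM per kilobase, against 3.69 and 3.35 for Psme2, the lowest activator gene. Immunoproteasome genes were low: the per-kilobase level was 6.69 and 6.60 CPM for Psmb10, the highest, and 0.969 and 0.965 for Psmb9, the lowest. Psmf1, whose product PI31 binds and inhibits the core in the test tube, lay at 1.73 and 1.69.

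Within groups, core and regulatory genes varied less between mice than the median gene of the table did. They were not compared with genes of like level, and genes at a few CPM are measured less closely. The median coefficient of variation was 6.01% for core and 4.83% for regulatory genes in the first experiment, against 12.9% for all genes. In the second it was 6.91% and 7.44%, against 15.0%. The median of the immunoproteasome genes was higher, 23.9% and 47.8%, though Psmb10 had 10.9% in the first experiment. For activators the medians were 6.79% and 14.3%. The high values of the second experiment rest in part on mouse 61: without it they were 24.3% for immunoproteasome genes and 8.79% for activators, against 14.8% for all genes. Psmd7, a lid subunit gene, was the least even regulatory gene of the second experiment (20.3%), with 43.3 to 78.2 CPM in WT-empty and 48.9 to 84.1 in WT-DHT.

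The first question is how the removal of testicular androgens moved these genes. With ORX in WT males, 3 of 42 members were called, 1 higher (Psmc3) and 2 lower (Psmd8 and Psme4), where 5.45% of all genes were called. In KO males 3 members were called, all lower (Psmd8, Psme4 and the ATPase gene Psmc1), where the share over all genes was 5.57%. With library-size scaling 1 member was called there, Psmd8, against 900 of all 17514 genes. These counts lie near the share of all genes, so the class as a whole did not stand out, and the results turn on Psmd8 and Psme4. The log2 fold change was under 0.3 in size for 40 of 42 members in WT and for 40 of 42 in KO. With TMM the members had a median of 0.01 in WT and of -0.06 in KO, and the latter turned to 0.05 with library-size scaling, where 34 rather than 4 members were positive. That scaling moved the median of all genes in this comparison by 0.11, so the members moved with the whole table. It also moved the percentage of called genes that were higher from 37.5 to 54.4 in WT and from 35.7 to 78.6 in KO.

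Adding androgen to females moved few members as well. With DHT in WT, 3 members were called, all higher (Psmd8, Psme4 and the beta subunit gene Psmb2), against 11.3% of all genes. In KO, 2 were called, both higher (Psmd8 and Psme4), against 4.62% of all genes. In size, 39 of 42 log2 fold changes in WT and 36 of 42 in KO were under 0.3. Without mouse 61 there were 40 in KO, and the exceptions were Psmd8 and Psme4. The median over all members was 0.04 in WT, which turned to -0.03 with library-size scaling, and 0.07 in KO (0.04 with that scaling). The percentage of called genes that were higher went from 58.8 with TMM to 43.6 with library-size scaling in WT, and from 62.0 to 58.2 in KO.

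Genes that fell with ORX in both genotypes and rose with DHT in both were rare: 0.871% of the 16642 genes in both tables, or 145 genes. Psmd8 and Psme4 are 2 of these, and 0 members had the reverse pattern, which 41 genes had by edgeR. The call of Psme4 with ORX in KO, which the pattern needs, was lost with library-size scaling. The pair was known from earlier results of these data, so their pattern is a description.

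KO against WT is the question of genotype. In sham males 7 members were called, 6 higher (Psmc4, Psmc3, Psmb6, Psmb1, Psma2 and Psmc1) and 1 lower (Psmd8), against 5.3% of all genes. With library-size scaling 5 were called, against 4.12% of all genes. DESeq2 called 12 members, and its share of all genes is given under the processing. Whether the share of the members exceeds that of all genes was not tested. In ORX males 1 member was called, higher (Psmb4), against 3.8%. In empty females 1 was called, lower (Psmd8), against 4.25%. In DHT females 3 were called, 1 higher (Psmd5) and 2 lower (Psmd8 and Psme4), against 11.6%. With library-size scaling 8 were called there, 6 of them higher, against 1982 of all 16987 genes. The median log2 fold change of all members with KO was 0.11 in sham, 0.03 in ORX, 0.06 in empty and 0.09 in DHT mice. With library-size scaling these medians were 0.08, 0.08, 0.10 and 0.18, all positive too. The median gene of the table was at -0.03, 0.05, 0.06 and 0.09 with that scaling, and between -0.01 and 0.01 with TMM. Scaling moved the percentage of called genes that were higher from 46.8 to 38.5 in sham, from 28.2 to 46.9 in ORX, from 41.3 to 52.9 in empty and from 44.1 to 65.3 in DHT mice. These comparisons share their control groups with those of treatment.

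For the interaction, whether the treatment acted differently in the genotypes, edgeR called 0 members for ORX, against 0.0228% of all genes. At an unadjusted p under 0.05 there were 6 members, and DESeq2 and limma-voom called 0 as well. For DHT it called 1 member, Psmd8 (-0.51, q = 0.0260), against 3.24% of all genes. That call was lost without WT-empty mouse 35 or 49 (q = 0.0554 and 0.0510) or KO-empty mouse 17 or 61 (q = 0.0643 and 0.0510). Library-size scaling moved the percentage of called genes with a positive interaction from 75 to 100 for ORX (3 of 4 genes and 3 of 3) and from 41.5 to 55.1 for DHT.

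**Figure D1:**
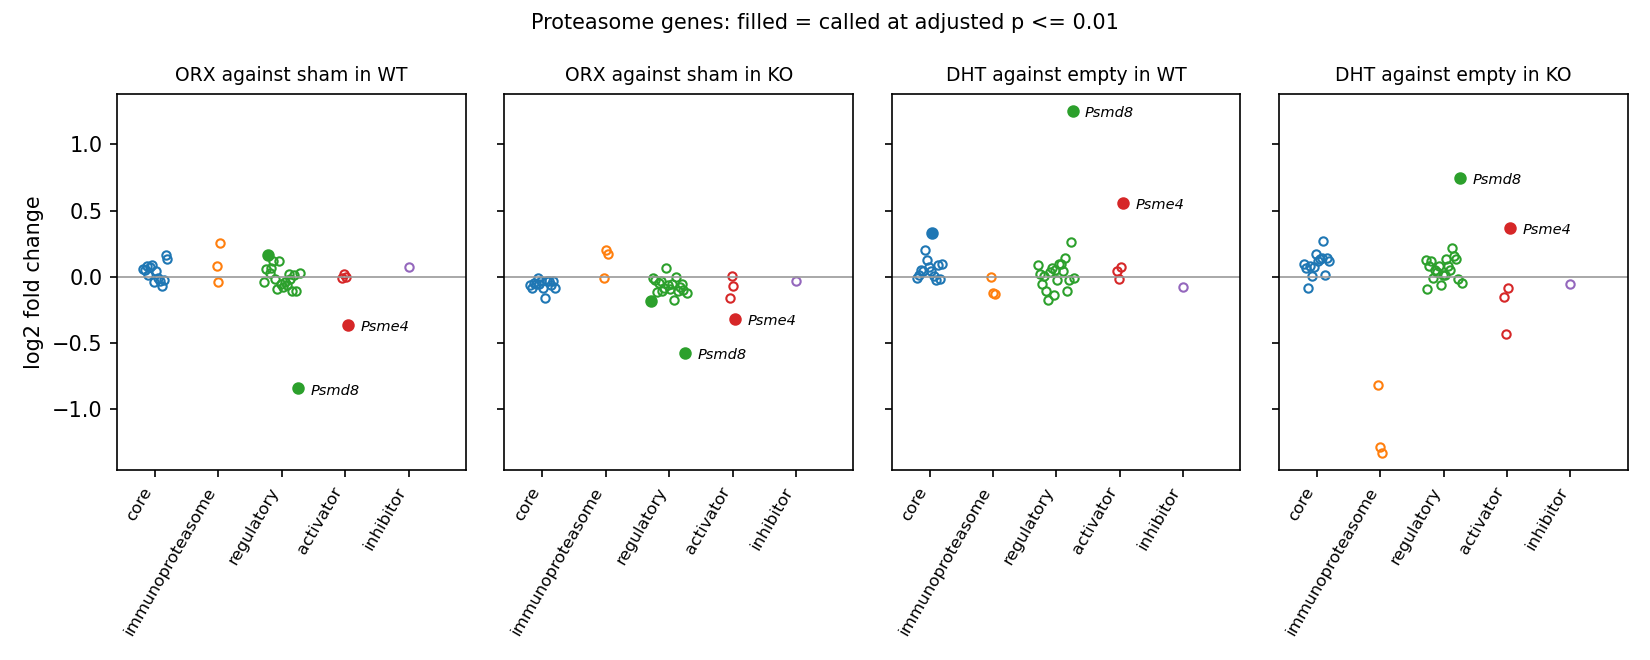
Log2 fold change (vertical axis) of each of the 42 members, grouped by class, for ORX against sham and DHT against empty in WT and KO; filled points were called by edgeR. Psmd8 and Psme4 lie lowest of the called genes in both ORX panels and highest in both DHT panels. The low immunoproteasome points of DHT in KO rest on KO-empty mouse 61. The small median shifts of the core and regulatory classes change sign under library-size scaling for ORX in KO and DHT in WT. That of the regulatory class does so for ORX in WT too.

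Among the core subunits, the clearest shift with TMM was with genotype in sham males. With library-size scaling the median of KO against WT was 0.13 in DHT mice, with 12 of 14 positive and 2 called. In that fit the median gene of the table was at 0.09, and 1982 of all 16987 genes were called. With TMM 9 of the 14 were positive in DHT mice, and edgeR called 0. In sham mice the core median was 0.12 with library-size scaling, with 12 positive and 2 called. There the median gene was at -0.03, and 722 of all 17514 genes were called. The level of Psmb6, a beta subunit with caspase-like activity, ran from 133 to 147 CPM in WT-sham (median 145) and from 162 to 179 in KO-sham (median 170). The groups do not overlap, and Psmb6 rose with a log2 fold change of 0.26 (SE 0.049, q = 8.62e-04). Psmb1, a beta subunit without a catalytic site, ran from 108 to 117 CPM (median 116) in WT-sham and from 123 to 144 (median 135) in KO-sham, again without overlap, and rose by 0.23 (SE 0.047, q = 0.00154). Psma2, an alpha subunit, ran from 90.7 to 101 CPM (median 96.5) and from 104 to 124 (median 116). It rose by 0.26 (SE 0.053, q = 0.00184), and with library-size scaling its q was 0.0136. Of all 14 core genes, 13 had a positive fold change with TMM and 12 with library-size scaling, with medians of 0.14 and 0.12. The median gene of the table moved by -0.01 with TMM. The depths of KO-sham and WT-sham do not overlap, and the part of depth in these values and those of the ATPases was not tested.

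In ORX males the called core gene was Psmb4, a structural beta subunit. It had 109, 113, 130, 113 and 119 CPM in KO-ORX replicates 1 to 5 and 89.7 to 104 CPM (median 102) in WT-ORX. All KO-ORX values lay above all WT-ORX values, and the log2 fold change was 0.24 (SE 0.054, q = 0.00472). The call was lost with a term for the replicate number (q = 0.0108). It was also lost without KO-ORX replicate 3 (0.20, q = 0.0219), KO-ORX replicate 5 (0.23, q = 0.0143), WT-ORX replicate 3 (0.22, q = 0.0146) or WT-ORX replicate 4 (0.21, q = 0.0139). In sham mice KO against WT gave 0.20 for Psmb4 (q = 0.0117), which was called by DESeq2 and without KO-sham replicate 5 (q = 0.00475), KO-ORX replicate 3 (q = 0.00694), WT-sham replicate 4 (q = 0.00676) or WT-ORX replicate 4 (q = 0.00872). In DHT mice it gave 0.32 (q = 0.0146), which was called by DESeq2, with library-size scaling and without WT-empty mouse 4 (0.33, q = 0.00726) or 49 (0.33, q = 0.00995), WT-DHT mouse 39 (0.38, q = 0.00494) or KO-DHT mouse 63 (0.38, q = 0.00525).

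With DHT in WT females Psmb2, another beta subunit without a catalytic site, had 49.7, 55.2, 48.9, 42.4 and 44.3 CPM in WT-empty mice 14, 4, 7, 35 and 49, and 58.3 to 63.0 CPM (median 60.6) in WT-DHT. The groups do not overlap, and Psmb2 rose by 0.33 (SE 0.061, q = 2.59e-04). In KO its means were 48.5 CPM in empty and 53.3 in DHT mice, a change of 0.14 that was not called (q = 0.161), and the interaction was -0.20 (q = 0.264). The other core genes moved little with treatment. Their class median was 0.05 with ORX in WT and -0.06 in KO, the latter turning to 0.05 with library-size scaling. With DHT it was 0.05 in WT, turning to -0.02 with that scaling, and 0.11 in KO (0.08). All 7 constitutive beta genes had a positive fold change with DHT in KO by TMM, and 6 by library-size scaling, with 0 called by edgeR and 3 at an unadjusted p under 0.05; DESeq2 and limma-voom called 0 too.

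Among the regulatory subunits, 3 of the 6 ATPase genes of the base were called higher in KO in sham males, where 5.3% of all genes were called. DESeq2 called 5 of the 6, and its larger share of all genes is given under the processing. All 6 Psmc genes had a positive fold change by TMM and by library-size scaling (medians 0.18 and 0.16), and the calls were 3 and 2. Psmc4 had 66.5 to 73.9 CPM (median 70.8) in WT-sham and 75.9 to 88.3 (median 84.0) in KO-sham, and rose by 0.24 (SE 0.041, q = 2.03e-04). Psmc3 had 191 to 209 CPM (median 203) and 223 to 244 (median 230), and rose by 0.20 (SE 0.039, q = 8.20e-04). The KO-sham mice lay above the WT-sham mice for both genes without overlap. In KO-sham, Psmc1 had 120 to 132 CPM (median 127), above 108 to 118 (median 112) in WT-sham. It rose by 0.16 (SE 0.039, q = 0.00700), with q = 0.0196 under library-size scaling. Its call was lost without KO-sham replicates 1, 2, 3 or 6 (q = 0.0147, 0.0123, 0.0221 and 0.0186) or WT-sham replicates 2, 3, 4, 5 or 6 (q = 0.0121, 0.0165, 0.0153, 0.0184 and 0.0200), at log2 fold changes between 0.15 and 0.17.

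In the other groups the same comparison called 0 of the ATPases by edgeR. Their median was 0.03 in ORX, 0.06 in empty and 0.17 in DHT mice. With library-size scaling it was 0.08, 0.11 and 0.26, where the median gene of the table was at 0.05, 0.06 and 0.09. Of the ATPases 1, 1 and 4 were at an unadjusted p under 0.05, and DESeq2 and limma-voom called 0 in ORX and empty mice. In DHT mice DESeq2 called Psmc3 and Psmc5, limma-voom called Psmc5, and library-size scaling called Psmc3, Psmc4 and Psmc5. Leaving out 1 library gave a call of Psmc5 in DHT mice without WT-empty mouse 14 (0.27, q = 0.00720), WT-DHT mouse 8 (0.30, q = 0.00876) or KO-DHT mouse 6 (0.30, q = 0.00552) or 25 (0.30, q = 0.00532), where its value was 0.27 (q = 0.0105) with all mice. It gave a call of Psmc3 without WT-empty mouse 4 (0.20, q = 0.00641) or KO-DHT mouse 63 (0.23, q = 0.00885), from 0.20 (q = 0.0157).

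With ORX 1 of the 6 ATPase genes was called in WT (Psmc3, higher) and 1 in KO (Psmc1, lower). Of all genes 5.45% and 5.57% were called there. Psmc3 had 213 to 237 CPM (median 223) in WT-ORX, above every WT-sham mouse, and rose by 0.16 (SE 0.038, q = 0.00638). Without KO-sham replicate 5 (0.15, q = 0.0108), WT-sham replicates 1, 2, 3, 5 or 6 (0.16, 0.16, 0.16, 0.15 and 0.16; q = 0.0108, 0.0152, 0.0141, 0.0210 and 0.0112) or WT-ORX replicates 3, 4 or 6 (0.15, 0.15 and 0.16; q = 0.0205, 0.0217 and 0.0130) it was not called. Psmc3 had 223, 229, 241, 222 and 227 CPM in KO-ORX, which overlaps with KO-sham. Psmc1 had 112, 107, 116, 111 and 107 CPM in KO-ORX, below every KO-sham mouse, and fell by 0.18 on the log2 scale (q = 0.00435). With library-size scaling its log2 fold change was -0.07 (q = 0.214). The call was also lost without KO-sham replicate 3 (q = 0.0129) or 6 (q = 0.0107) or KO-ORX replicate 2 (q = 0.0140), 4 (q = 0.0130) or 5 (q = 0.0166). The interaction of genotype and ORX was -0.18 for Psmc3 (q = 0.224) and -0.14 for Psmc1 (q = 0.380), not called.

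Psmd8, the gene of the lid subunit Rpn12, had the largest log2 fold change of the called members in each comparison that called it. In males it had 194 to 226 CPM in WT-sham (median 217), 111 to 127 in WT-ORX (median 120), 138 to 169 in KO-sham (median 155), and 121, 99.0, 95.1, 103 and 103 in KO-ORX replicates 1 to 5. Every WT-sham male thus lay above every KO-sham male, and both lay above the operated mice of their genotype, while WT-ORX and KO-ORX overlap. With ORX Psmd8 fell in WT to 0.557 times the sham level (log2 fold change -0.84, SE 0.055, q = 1.80e-11) and in KO to 0.672 times (-0.57, SE 0.058, q = 1.44e-07). In sham mice it was lower in KO (-0.47, SE 0.054, q = 1.65e-06). In ORX mice the difference of the genotypes was -0.19 and was not called (q = 0.0359), but it was without KO-ORX replicate 1 (-0.25, q = 0.00329). The interaction was 0.27 (q = 0.199), so the effect of ORX is not shown to differ between genotypes.

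In females Psmd8 had 122, 139, 125, 107 and 106 CPM in WT-empty mice 14, 4, 7, 35 and 49, and 105, 81.2, 75.8, 97.0 and 92.7 in KO-empty mice 17, 33, 64, 61 and 62. With DHT it had 250 to 317 CPM in WT (median 286) and 128 to 170 in KO (median 153). The WT-DHT mice lay above all other females, and KO-DHT lay above KO-empty without overlap. Psmd8 rose with DHT to 2.39 times the empty level in WT (log2 fold change 1.25, SE 0.094, q = 3.54e-10) and to 1.68 times in KO (0.74, SE 0.093, q = 6.70e-06). With DHT on board, KO mice had 0.528 times the WT level (-0.92, SE 0.088, q = 3.51e-08). These changes kept their calls under every alternative and without any single library.

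The weaker effect of DHT on Psmd8 in KO was called by the interaction, at -0.51 (SE 0.130, q = 0.0260). That call was lost without WT-empty mouse 35 (-0.47, q = 0.0554) or 49 (-0.47, q = 0.0510), or without KO-empty mouse 17 (-0.45, q = 0.0643) or 61 (-0.48, q = 0.0510). In empty mice Psmd8 was lower in KO (-0.41, SE 0.096, q = 0.00759), and every KO-empty value lay below every WT-empty value. With library-size scaling this difference was -0.36 (q = 0.0169). It was not called without WT-empty mouse 14 (-0.40, q = 0.0173), 4 (-0.35, q = 0.0293) or 7 (-0.39, q = 0.0214), WT-DHT mouse 8 (-0.41, q = 0.0103), or KO-empty mouse 33 (-0.37, q = 0.0212), 64 (-0.35, q = 0.0275) or 62 (-0.42, q = 0.0134).

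Psmd8 moved apart from the rest of the particle. Its mean share of the regulatory counts was 10.4% in WT-sham, 5.99% in WT-ORX, 7.16% in KO-sham and 5.20% in KO-ORX. In females the share was 6.52% in WT-empty, 14.1% in WT-DHT, 4.9% in KO-empty and 7.60% in KO-DHT. Per length, its level was 2.88 times the median of the other lid genes in WT-sham and 1.67 times in WT-ORX, and 4.52 times in WT-DHT against 2.05 times in WT-empty. The other 19 regulatory genes had a median log2 fold change of -0.02 with ORX in WT and -0.08 in KO, turning to 0.02 and 0.03 with library-size scaling. With DHT their medians were 0.02 in WT, turning to -0.04 with that scaling, and 0.05 in KO (0.03).

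**Figure D2:**
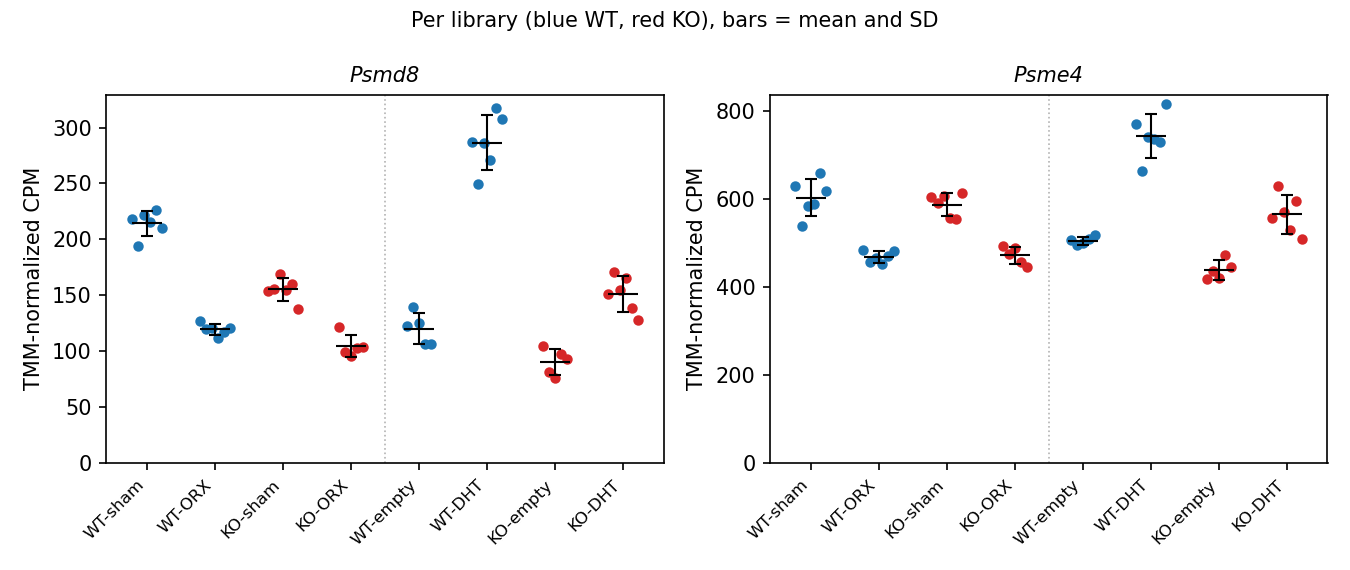
Level in CPM (vertical axis) of Psmd8 and Psme4 in each library (points) of the 8 groups, with the group mean and SD as bars. Psmd8 runs from 75.8 CPM in a KO-empty mouse to 317 in a WT-DHT mouse, and both genes are lower with ORX than sham and higher with DHT than empty in each genotype.

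Psmd5, the gene of a chaperone that helps to build the base, was the other Psmd gene called. It had 17.6 to 20.5 CPM in WT-DHT (median 19.2) and 22.2 to 25.4 in KO-DHT (median 23.6), with no overlap. It was higher in KO by 0.32 (SE 0.066, q = 0.00116). In empty mice its means were 20.7 CPM in WT and 21.4 in KO.

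Of the activators, Psme4 was the gene that moved. Its product PA200 caps the core without ATP and is known for the degradation of acetylated histones. In males it had 538 to 659 CPM in WT-sham (median 602), 450 to 483 in WT-ORX (median 468), 554 to 612 in KO-sham (median 596), and 492, 473, 487, 457 and 444 in KO-ORX replicates 1 to 5. Operated mice lay below the sham mice of either genotype without overlap, and the genotypes overlap within each treatment. Psme4 fell with ORX in WT to 0.776 times the sham level (log2 fold change -0.37, SE 0.045, q = 2.28e-06) and in KO to 0.803 times (-0.32, SE 0.048, q = 6.79e-05). With library-size scaling the change in KO was -0.21 (q = 0.0154), where the median gene was shifted upward as given above. The difference of the genotypes was -0.04 in sham (q = 0.674) and 0.01 in ORX mice (q = 0.949), and the interaction was 0.05 (q = 0.855).

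In females Psme4 had 505, 494, 499, 507 and 517 CPM in WT-empty mice 14, 4, 7, 35 and 49, and 416, 434, 420, 472 and 445 in KO-empty mice 17, 33, 64, 61 and 62. With DHT it had 663 to 816 CPM in WT (median 738) and 508 to 628 in KO (median 563). DHT mice lay above the empty mice of their genotype, and all KO-DHT mice lay below all WT-DHT mice. Psme4 rose to 1.47 times in WT (0.56, SE 0.060, q = 1.87e-07) and to 1.29 times in KO (0.37, SE 0.060, q = 2.46e-04). In DHT mice the KO level was 0.760 times that of WT (-0.40, SE 0.057, q = 1.74e-05). In empty mice the difference was -0.21 (q = 0.0402), not called, and the interaction of -0.19 (q = 0.280) does not show that DHT acted differently in the genotypes.

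Psme1 and Psme2 encode PA28 alpha and beta, which join the core in antigen-presenting cells and others under interferon gamma, and Psme3 encodes the nuclear PA28 gamma. In males their means were 19.2, 19.1, 21.5 and 19.2 CPM for Psme1, 6.24, 6.33, 6.75 and 6.74 for Psme2, and 28.4, 28.3, 26.5 and 25.3 for Psme3 (WT-sham, WT-ORX, KO-sham, KO-ORX). The log2 fold changes of the 3 genes in this experiment ran from -0.16 to 0.16, with 0 of 15 values called by edgeR, DESeq2 or limma-voom and 3 at an unadjusted p under 0.05. Without KO-ORX replicate 3, Psme1 was called lower with ORX in KO (-0.26, q = 0.00907, from -0.16, q = 0.190). The inhibitor gene Psmf1 lay between 10.1 and 11.6 CPM in the group means of both experiments, and its log2 fold changes ran from -0.10 to 0.14 over the 10 comparisons, with 0 called by edgeR, DESeq2 or limma-voom and 0 at an unadjusted p under 0.05.

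In females, Psme3 had group means of 24.1, 25.3, 26.0 and 24.5 CPM (WT-empty, WT-DHT, KO-empty, KO-DHT), and was not called. Psme1 had means of 17.6, 18.1, 24.7 and 22.3 CPM, and Psme2 had 5.17, 5.12, 7.79 and 5.77. In KO-empty mice 17, 33, 64, 61 and 62 the levels were 17.0, 19.8, 20.5, 45.6 and 20.6 CPM for Psme1 and 5.54, 6.20, 6.81, 14.4 and 6.03 for Psme2. Mouse 61 alone raised both means. For KO against WT in empty mice Psme1 had 0.49 (q = 0.0744), and 0.15 without mouse 61 (q = 0.305). Psme2 had 0.59 (q = 0.0505), and 0.25 without it (q = 0.227). With DHT in KO, Psme2 had -0.43 (q = 0.133), and -0.09 without mouse 61 (q = 0.725). In that comparison Psme1 turned from -0.15 (q = 0.621) to 0.19 without mouse 61 (q = 0.130), not called either way. In DHT mice Psme1 was 0.30 higher in KO with mouse 61 in the fit (q = 0.212) and 0.30 higher without it, where it was called (q = 0.00249).

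The immunoproteasome subunits replace the catalytic beta subunits under interferon and change which peptides are cut for antigen presentation. In males Psmb8 had means of 4.83, 4.69, 4.29 and 4.88 CPM, Psmb9 3.25, 3.89, 3.34 and 3.73, and Psmb10 11.6, 12.3, 10.9 and 10.8 (WT-sham, WT-ORX, KO-sham, KO-ORX). Their log2 fold changes in the 5 comparisons of this experiment ran from -0.18 to 0.26. By edgeR 0 were called, 0 had an unadjusted p under 0.05, and DESeq2 and limma-voom called 0. The summed level of the 3 genes was 19.7 CPM in WT-sham, 20.8 in WT-ORX, 18.5 in KO-sham and 19.4 in KO-ORX. The highest KO-ORX library, replicate 3, held 27.5 CPM. By median the KO groups had the reverse order, 18.7 CPM in KO-sham and 17.4 in KO-ORX.

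In females the KO-empty group was led by mouse 61. KO-empty mice 17, 33, 64, 61 and 62 had 4.02, 2.72, 4.45, 25.4 and 4.46 CPM of Psmb8. They had 2.50, 2.2, 4.97, 23.7 and 3.01 CPM of Psmb9, and 9.86, 8.38, 11.3, 49.4 and 10.0 CPM of Psmb10. Mouse 61 thus lay far above its group for all 3 genes, and the other 4 mice lay in or near the range of the other females. The means of Psmb8 were 3.22 CPM in WT-empty, 2.96 in WT-DHT and 3.37 in KO-DHT. They were 2.28, 2.08 and 2.90 CPM for Psmb9 and 8.91, 8.91 and 10.1 for Psmb10.

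With mouse 61, KO against WT in empty mice gave log2 fold changes of 1.35 for Psmb8 (q = 0.0477), 1.68 for Psmb9 (q = 0.0222) and 1.00 for Psmb10 (q = 0.0567). Without it the values were 0.28 (q = 0.540), 0.48 (q = 0.249) and 0.15 (q = 0.482). With DHT in KO the values were -1.29, -1.33 and -0.82 (q = 0.0412, 0.0473 and 0.0937), and -0.22, -0.13 and 0.03 without mouse 61 (q = 0.641, 0.807 and 0.916). None passed the threshold either way by edgeR, and the large values rest on 1 mouse. Psmb9 passed it for KO against WT in empty mice when mouse 17 (1.9, q = 0.00974) or mouse 33 (1.92, q = 0.00736) was left out and mouse 61 kept. The interaction went from -1.16, -1.20 and -0.81 to -0.09, -0.01 and 0.03. Of the counts over all 42 members, that of KO against WT in DHT mice became 4 without mouse 61, against 11.8% of all genes, and that of the interaction became 0 by edgeR, against 2.83%, with 4 at an unadjusted p under 0.05. Those of DHT in WT (3), DHT in KO (2) and KO against WT in empty mice (1) were the same numbers. Over all genes 11.5% were called with DHT in WT without mouse 61, 3.14% with DHT in KO and 3.17% for KO against WT in empty mice.

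**Figure D3:**
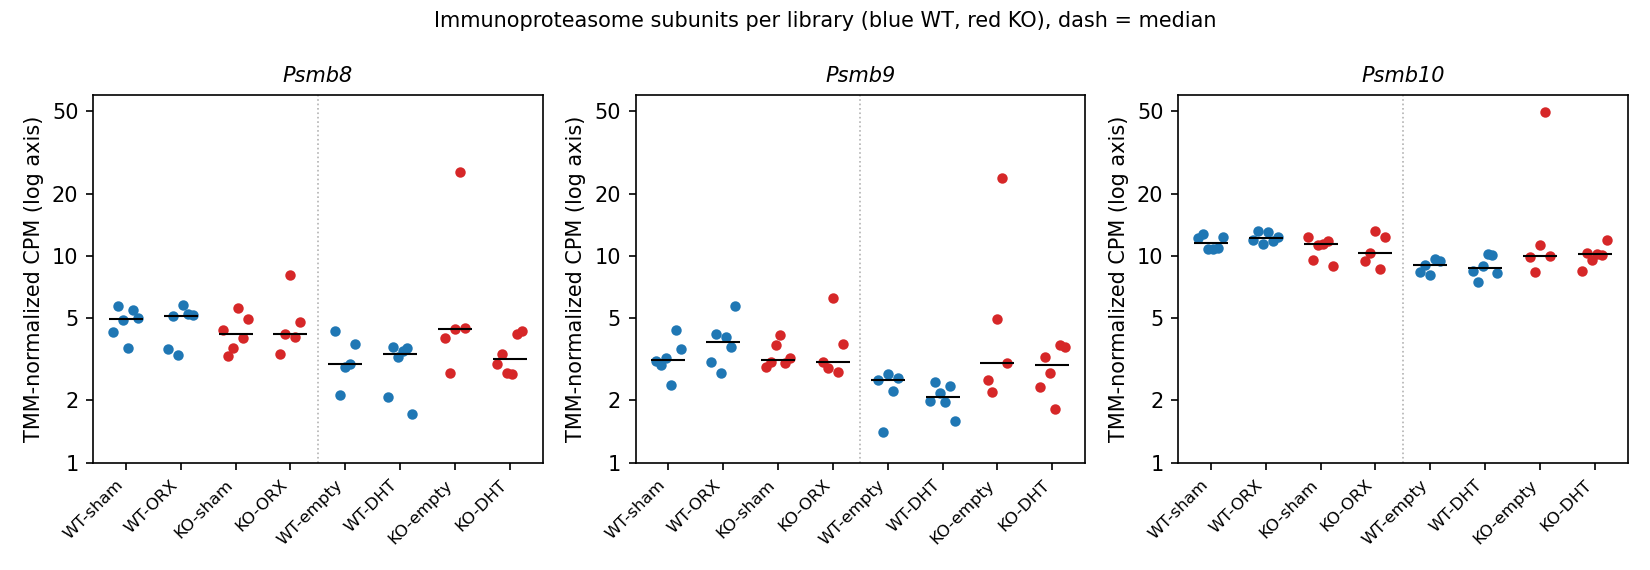
Level in CPM (vertical axis, log scale) of Psmb8, Psmb9 and Psmb10 in each library (points) of the 8 groups, with a dash at the median of each group. The single high point of each gene in KO-empty is mouse 61, at 25.4, 23.7 and 49.4 CPM.

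Genes of antigen presentation and the interferon response were high in the same mouse. Of 18 such genes, 18 were highest in mouse 61 among all 22 females, where 9.37% of all genes were. Their summed level was 409, 334, 508, 2260 and 428 CPM in KO-empty mice 17, 33, 64, 61 and 62, and B2m was the most abundant of them. B2m, the light chain of class I molecules, had 98.9, 77.1, 136, 516 and 106 CPM in these mice. Tap1, a peptide transporter, had 4.34, 3.87, 7.38, 61.4 and 6.50. The median log2 fold change of the list was 1.05 for KO against WT in empty mice and 0.16 without mouse 61, and -0.96 and -0.10 with DHT in KO. By edgeR 0 of the 18 were called in these comparisons, with 15 at an unadjusted p under 0.05 in each. DESeq2 called 1 with DHT in KO and limma-voom called 0. Without mouse 61 there were 2 with DHT in KO and 3 for KO against WT in empty mice at an unadjusted p under 0.05, and 0 called. Gbp7, an interferon-induced GTPase, had -0.64 with DHT in WT and was called without mouse 61 (q = 0.00122, against q = 0.484 with it), and its value for KO against WT in empty mice turned from 1.53 to -0.53 (q = 0.0347). In the first experiment Erap1, a peptide-trimming enzyme, fell by 0.18 with ORX in WT (q = 0.00619, q = 0.0913 with library-size scaling and 0.0140 with a replicate term), and that call was lost on leaving out any of 9 of the 23 libraries. KO-ORX replicate 3 had an interferon sum of 545 CPM, and the other KO-ORX libraries had 346 to 424.

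Markers of leukocytes and macrophages were also high in mouse 61. All 5 leukocyte markers were highest there, with sums of 42.7, 20.3, 33.5, 99.2 and 34.1 CPM in KO-empty mice 17, 33, 64, 61 and 62 and Ptprc as the most abundant. Of 9 macrophage markers 7 were highest there, with sums of 256, 167, 236, 431 and 233 CPM and Lyz2 as the most abundant. For T and B lymphocytes 3 of 9 markers have an entry in the second table, and 1 of these, Cd79b, was highest in mouse 61, with sums of 2.01, 2.07, 1.24, 3.56 and 1.82 CPM and Cd3e as the most abundant. The part of these cells in the immunoproteasome levels was not tested. In bulk muscle more cells of a type and more RNA per cell cannot be told apart, and the same holds for fewer cells and less RNA.

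Genes that build and run the proteasome beside its subunits were read from the same fit. For these lists and the marker lists, the share of all genes called was 5.45% with ORX in WT and 5.57% in KO. It was 11.3% with DHT in WT and 4.62% in KO. For KO against WT it was 5.3%, 3.8%, 4.25% and 11.6% in sham, ORX, empty and DHT mice. Whether any list exceeds these shares was not tested. Pomp, the chaperone of core maturation, was the called gene among 5 assembly factors, and Paaf1 has no entry. Pomp had 44.8 to 52.7 CPM in WT-empty (median 48.6), 55.2 to 69.1 in KO-empty (60.6), 46.6 to 51.7 in WT-DHT (50.9) and 57.9 to 61.2 in KO-DHT (58.4). All KO females lay above all WT females, and Pomp was higher in KO by 0.33 in empty (SE 0.058, q = 6.61e-04) and by 0.22 in DHT mice (SE 0.053, q = 0.00336). Pomp was highest in mouse 61 among all 22 females. The call in empty mice was kept on leaving out any 1 library (0.28 to 0.37, q at most 0.00268). In males its means were 66.0 CPM in WT-sham, 69.5 in WT-ORX, 73.9 in KO-sham and 74.5 in KO-ORX, and KO against WT in sham gave 0.16 (q = 0.0488). In the other 8 comparisons 0 of the 5 assembly genes were called by edgeR, DESeq2 or limma-voom, with at most 1 at an unadjusted p under 0.05.

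Nfe2l1, the transcription factor that raises proteasome genes when the proteasome is inhibited, was the most abundant of 11 regulator genes. In WT females it had 334 to 419 CPM with an empty implant (median 363) and 433 to 557 with DHT (median 501), and the groups do not overlap. It rose by 0.40 (SE 0.076, q = 3.98e-04). In KO its means were 448 and 494 CPM, a change of 0.14 (q = 0.258), and the interaction was -0.26 (q = 0.226). With ORX it had -0.10 in WT and -0.11 in KO, not called, and KO against WT gave 0.15 in sham (q = 0.0446) and 0.25 in empty mice (q = 0.0474).

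Nfyb, a subunit of a factor that binds CCAAT letters, moved differently with DHT in the genotypes. Its medians were 27.2 CPM in WT-empty (24.4 to 30.5), 20.3 in WT-DHT (18.8 to 21.6), 24.0 in KO-empty (21.3 to 28.9) and 24.5 in KO-DHT (22.8 to 28.0). WT-DHT lay below WT-empty and KO-DHT without overlap. It fell by 0.41 with DHT in WT (q = 3.73e-04), was 0.30 higher in KO among DHT mice (q = 0.00422), and had an interaction of 0.45 (SE 0.109, q = 0.0163), a call kept on leaving out any 1 library. The difference in DHT mice was not called without WT-DHT mouse 8 (0.28, q = 0.0128) or 34 (0.30, q = 0.0105), or KO-DHT mouse 6 (0.27, q = 0.0127) or 63 (0.28, q = 0.0130). In males Nfyb rose with ORX in WT (0.25, q = 0.00308), with overlapping groups, and was lower in KO among ORX mice (-0.24, q = 0.00989), a call that was lost on leaving out any of 17 of the 23 libraries, with library-size scaling (q = 0.0830), with limma-voom (q = 0.0101) and with a replicate term (q = 0.0194). The other regulators called were Klf13, which fell with DHT in WT (-0.72, q = 1.13e-04), and Foxo4, which rose with ORX in WT (0.26, q = 7.75e-04) and was higher in KO-sham (0.23, q = 0.00239). In the other comparisons 0 of the 11 were called by edgeR, with up to 5 at an unadjusted p under 0.05 and up to 1 by DESeq2 or limma-voom.

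Of 17 proteins that bind the proteasome or carry substrates to it, Ecpas was the most abundant. With DHT in WT 4 were called: Ubqln4 (0.49, q = 6.21e-05), Rad23b (0.25, q = 0.00226) and Zfand5 (0.24, q = 0.00921, lost for any of 17 of 22 libraries, mouse 61 among them) rose, and Ecpas, a proteasome adaptor, fell (-0.23, q = 0.00467). Ubqln4 and Rad23b, shuttle proteins, went the other way with ORX in KO (-0.35, q = 3.43e-04, and -0.20, q = 0.00269). Among DHT mice both were lower in KO (-0.39, q = 4.24e-04, and -0.26, q = 8.97e-04). Zfand5 also rose with DHT in KO (0.29, q = 0.00461), which was lost without KO-empty mouse 17 (q = 0.0107) or 64 (q = 0.0179), or KO-DHT mouse 6 (q = 0.0147) or 65 (q = 0.0110). With ORX in WT the ligase gene Ube3c fell (-0.17, q = 0.00501), a call lost on leaving out any of 7 of 23 libraries, and Ubqln4 was lower in KO-ORX than in WT-ORX (-0.25, q = 0.00839), lost for any of 13 libraries and with a replicate term (q = 0.0147). With library-size scaling the calls of Ubqln4 with ORX in KO (q = 0.0163) and in KO-ORX (q = 0.0589), of Rad23b with ORX in KO (q = 0.132), with DHT in WT (q = 0.0318) and among DHT mice (q = 0.0232), of Zfand5 with DHT in WT (q = 0.0982) and KO (q = 0.0177) and of Ube3c (q = 0.136) were lost. The call of Rad23b with DHT in WT was lost without WT-empty mouse 35 (0.21, q = 0.0107). That of Ecpas was lost without WT-empty mouse 7 (-0.22, q = 0.0123) or 49 (-0.20, q = 0.0175) or WT-DHT mouse 39 (-0.21, q = 0.0122). In the other 4 comparisons 0 of the 17 were called by edgeR, with 2 to 4 at an unadjusted p under 0.05, and DESeq2 called 2 for KO against WT in sham.

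Of the 6 genes for ubiquitin and its E1 enzymes, Ubb rose with ORX in WT (0.23, q = 1.68e-04) and in KO (0.17, q = 0.00649), the latter lost on leaving out any of 8 of 23 libraries and with a replicate term (q = 0.0123). Ubb was the most abundant of them in males. In the other 8 comparisons 0 of the 6 were called by edgeR, DESeq2 or limma-voom, with at most 2 at an unadjusted p under 0.05.

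The segregase VCP pulls ubiquitinated proteins out of complexes and membranes. Of VCP and 8 cofactors, whose most abundant gene was Faf1, 3 fell with ORX in KO: Ubxn1 (-0.33, q = 3.43e-04), Faf1 (-0.21, q = 7.55e-04) and Nploc4 (-0.24, q = 0.00353). Faf1 also fell with ORX in WT (-0.21, q = 3.45e-04). With DHT in WT Ubxn1 (0.29, q = 0.00238), Nploc4 (0.37, q = 0.00804) and Vcp (0.25, q = 0.00888) rose. The median of the 9 genes was -0.14 with ORX in each genotype, 0.20 with DHT in WT and 0.03 with DHT in KO; library-size scaling gave -0.11, -0.04, 0.13 and 0.00. Ufd1 was higher in KO in sham (0.15, q = 0.00828) and empty mice (0.24, q = 0.00608; 0.23, q = 0.0190 without mouse 61). With library-size scaling 0 of the 9 were called in any comparison. Leaving out 1 library ended the calls of Ufd1 in sham (16 of 23 libraries; also lost with a replicate term, q = 0.0127) and empty mice (7 of 22), and those of Vcp (14 of 22) and Nploc4 (9 of 22) with DHT in WT. That of Ubxn1 with DHT in WT ended without WT-empty mouse 35 (0.26, q = 0.0107) or WT-DHT mouse 8 (0.26, q = 0.0107), and that of Nploc4 with ORX in KO without KO-sham replicate 2 (-0.22, q = 0.0107) or 3 (-0.23, q = 0.0101) or KO-ORX replicate 2 (-0.22, q = 0.0133). In the other comparisons 0 of the 9 were called by edgeR and limma-voom, and up to 1 by DESeq2, with 0 to 3 at an unadjusted p under 0.05.

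Among 15 ligases and partners known from muscle, Fbxo32 (atrogin-1) was lower in KO under each treatment. It had 394 to 526 CPM in WT-sham (median 431), 214 to 312 in WT-ORX (265), 201 to 355 in KO-sham (230) and 153 to 187 in KO-ORX (174). In females it had 269 to 439 in WT-empty (307), 407 to 731 in WT-DHT (500), 165 to 233 in KO-empty (189) and 162 to 257 in KO-DHT (190). KO mice lay below WT mice of the same treatment in all 4 comparisons without overlap. Fbxo32 fell with ORX in WT (-0.75, q = 1.92e-05) and in KO (-0.52, q = 0.00307), and was lower in KO by -0.85 in sham (q = 4.37e-06), -0.62 in ORX (q = 5.55e-04), -0.81 in empty (q = 0.00276) and -1.47 in DHT mice (q = 1.37e-07). With DHT it rose in WT (0.67, q = 0.00342, lost for any of 5 of 22 libraries), with overlapping groups, and had 0.01 in KO (q = 0.984); the interaction of -0.67 was not called (q = 0.119). The change with ORX in KO had q = 0.0171 with library-size scaling and q = 0.0119 (-0.48) without KO-ORX replicate 1. The difference in empty mice was lost without WT-empty mouse 4 (-0.70, q = 0.0125) or 49 (-0.72, q = 0.0112) or KO-empty mouse 64 (-0.75, q = 0.0112).

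Trim63 (MuRF1), the other ligase best known from atrophy, was not called in any comparison. Its means were 306, 283, 253 and 218 CPM in males (WT-sham, WT-ORX, KO-sham, KO-ORX) and 245, 240, 186 and 182 in females (WT-empty, WT-DHT, KO-empty, KO-DHT). KO against WT gave -0.27 in sham (q = 0.0463), -0.38 in ORX (q = 0.0104), -0.40 in empty (q = 0.169) and -0.40 in DHT mice (q = 0.0940). Its relative Trim54 fell with ORX in WT (-0.27, q = 5.05e-04) and KO (-0.36, q = 3.72e-05), was lower in KO in sham (-0.25, q = 0.00102) and ORX mice (-0.35, q = 6.20e-05), and rose with DHT in WT (0.67, q = 0.00115). In females KO against WT gave 0.08 in empty (q = 0.790) and -0.41 in DHT mice (q = 0.0283), not called. Asb5, part of a ubiquitin ligase, rose with DHT in WT (0.86, q = 4.37e-08) and KO (0.60, q = 4.10e-05), and was lower in KO in empty (-0.45, q = 0.00177) and DHT mice (-0.72, q = 4.47e-07). In males it fell with ORX in WT (-0.29, q = 0.00243) and was lower in KO-sham (-0.28, q = 0.00332), and both calls were lost with library-size scaling (q = 0.0481 and 0.0143), the latter also without WT-sham replicate 5 (-0.26, q = 0.0115). Also called, among others, were Trim55 with ORX in WT (0.27, q = 6.80e-04), Fbxo31 in KO-sham and KO-ORX (-0.34, q = 0.00111, and -0.37, q = 8.98e-04), Fbxo40 with DHT in WT and in KO-DHT against WT-DHT (-0.38, q = 0.00151, and 0.38, q = 0.00113) and Mdm2 in KO-empty (-0.29, q = 0.00970, lost for any of 17 of 22 libraries and with library-size scaling, q = 0.0491). In all, 5 of the 15 were called with ORX in WT (1 higher), 2 with ORX in KO (0 higher), 5 with DHT in WT (3 higher) and 1 with DHT in KO (higher). Of all genes 5.45%, 5.57%, 11.3% and 4.62% were called in these comparisons. For KO against WT 5, 4, 3 and 6 were called in sham, ORX, empty and DHT mice, of which 0, 0, 0 and 1 were higher. There the shares of all genes were 5.3%, 3.8%, 4.25% and 11.6%. Whether the list exceeds these shares was not tested. Neither interaction gave a call by edgeR, with 2 and 7 at an unadjusted p under 0.05, and DESeq2 and limma-voom gave 0. The most abundant of these genes in both experiments was Nedd4.

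The labelled tissue carried muscle markers at high levels. Fast-fibre markers summed to 103617 to 180578 CPM over the 45 libraries, with Myh4 as the most abundant. Of the 9, 2 rose (Mylpf, 0.44, and Pvalb, 0.29) and 1 fell (Myh1, -0.61) with ORX in WT, and 3 fell with ORX in KO (Tnni2, -0.26, Myh1, -0.61, and Tnnt3, -0.20). The calls of Tnni2 (q = 0.0230), Tnnt3 (q = 0.166) and Myh1 (q = 0.0114) in KO were lost with library-size scaling, that of Tnnt3 also with the stricter filter (q = 0.0147). Leaving out 1 library ended the calls of Myh1 in WT (5 of 23) and KO (6 of 23) and of Tnnt3 in KO (16 of 23). For KO against WT the called genes of this list went both ways. Acta1, the gene of skeletal alpha-actin, which slow fibres hold too, was lower in KO in sham (-0.37), ORX (-0.50) and DHT mice (-0.51). Actn2, which is not confined to fast fibres either, was higher in KO in empty (0.64, q = 0.00306) and DHT mice (0.65, q = 3.59e-04), the former lost without WT-empty mouse 14 (0.56, q = 0.0101) or 7 (0.60, q = 0.0112). Its values in males were 0.29 in sham (q = 0.0759) and 0.34 in ORX mice (q = 0.0591), not called. Tnnt3 (-0.41) and Ckm (-0.37) were lower in KO among ORX mice, and the call of Ckm was lost without KO-ORX replicate 1 (-0.35, q = 0.0115) or 2 (-0.36, q = 0.0108). Tnnt3 was also lower in KO among empty mice (-0.37, q = 0.00620), which was lost for any of 6 of 22 libraries, mouse 61 (-0.33, q = 0.0231) among them. By edgeR 0 fast-fibre markers were called with DHT in WT, with 1 at an unadjusted p under 0.05 and 0 by DESeq2 and limma-voom, and Tnni2 rose with DHT in KO (0.36, q = 0.00435), which was lost for any of 7 of 22 libraries, mouse 61 (0.32, q = 0.0187) among them.

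Of 7 slow-fibre markers, 0 were called with DHT in WT and 1 in KO, against 11.3% and 4.62% of all genes. All 7 had a negative log2 fold change with DHT in WT (median -1.21) and in KO (-1.67), each at an unadjusted p under 0.05, and Tpm3 passed the threshold in KO (-1.47, q = 0.00891). Tpm3 and Myl2 were highest in mouse 61 among all 22 females. Without that mouse Tpm3 was not called (-1.37, q = 0.0245), as was so for any of 13 of 22 libraries and with library-size scaling (q = 0.0124), and the median in KO was -1.59, with all 7 negative. Their sums spread widely: 342 to 1831 CPM in WT-empty, 175 to 811 in WT-DHT, 764 to 1936 in KO-empty and 234 to 988 in KO-DHT. In males the mean sums were 757, 918, 877 and 1007 CPM (WT-sham, WT-ORX, KO-sham, KO-ORX), and 0 slow-fibre markers were called by edgeR, DESeq2 or limma-voom with ORX, with 4 at an unadjusted p under 0.05 in WT and 1 in KO. The part of the fibre types in the levels of Psmd8 and Psme4 was not tested.

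Markers of other cells moved less evenly. Cd52, a leukocyte marker, rose with ORX in WT (1.10) and fell with DHT in KO (-1.93, q = 0.00556). These calls were lost for any of 7 of 23 and of 4 of 22 libraries, mouse 61 (-1.18, q = 0.0460) among the latter, and with limma-voom (q = 0.0183 and 0.0302). Csf1r, a macrophage marker, fell with ORX in WT (-0.31) and was lower in KO-sham (-0.29), and C1qa, another, was lower in KO-ORX (-0.48). All 3 calls were lost with library-size scaling (q = 0.0375, 0.0162 and 0.0462) and for any of 6, 8 and 15 of 23 libraries. The T-cell marker Cd3e, the single lymphocyte marker of 9 with an entry in the first table, was higher in KO in sham (1.28) and ORX mice (1.33). The endothelial marker Pecam1 rose with DHT in WT (0.33). The fibroblast markers Lum and Pdgfra went in opposite directions with ORX in WT (0.59 and -0.23), Lum rose with ORX in KO (0.57) and fell with DHT in KO (-0.98), and Dcn rose with DHT in WT (0.54) and KO (0.51) while Pdgfra fell in WT (-0.44). Library-size scaling ended the calls of Pecam1 (q = 0.0347), of Pdgfra with ORX in WT (q = 0.0803) and of Dcn in WT (q = 0.0154) and KO (q = 0.0315). Leaving out 1 library ended that of Pdgfra with ORX in WT (17 of 23, and with a replicate term, q = 0.0191) and that of Dcn in KO (6 of 22). By edgeR 0 of 6 adipocyte and 0 of 5 Schwann cell markers were called in the 10 comparisons, with at most 3 and 1 at an unadjusted p under 0.05 in any of them; DESeq2 and limma-voom each called 1 adipocyte marker with DHT in WT, and edgeR did so without mouse 61 (Retn, -1.25, q = 0.00920).

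Some members share exons with other genes in the GENCODE M21 annotation. Exons of 2 members overlap another gene on the same strand and those of 11 on the opposite strand, and for 6 of the latter (Psmb7, Psmb9, Psmc3, Psmd1, Psmd13 and Psme1) the other gene has an entry in the tables. Psmb9 shares exon bases with Tap1 in this way, and Psmc3 with Slc39a13. Psmd8 and Psme4 have no such overlap. The strand setting of the counting is not stated.

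The starts of Psmd8 and Psme4, the members called in all 4 treatment comparisons with TMM, are shown to let a reader compare them. RefSeq promoters (GRCm38.p6) were matched by symbol for 36 of the 42 members, and Psmb1, Psmb2, Psmb7, Psmc3, Psmd3 and Psmd7 have none. The windows are the 250 bases before the start, at chr7:29180674-29180923 on the minus strand for Psmd8 and chr11:30771525-30771774 on the plus strand for Psme4. Capitals mark the letters CGGAAG or, read on the other strand, CTTCCG. These letters were chosen after both sequences had been seen.
Psmd8: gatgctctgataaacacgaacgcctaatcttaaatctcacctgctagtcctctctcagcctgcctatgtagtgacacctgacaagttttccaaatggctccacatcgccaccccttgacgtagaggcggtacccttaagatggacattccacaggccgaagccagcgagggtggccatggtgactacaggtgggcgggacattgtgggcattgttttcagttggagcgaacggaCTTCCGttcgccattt
Psme4: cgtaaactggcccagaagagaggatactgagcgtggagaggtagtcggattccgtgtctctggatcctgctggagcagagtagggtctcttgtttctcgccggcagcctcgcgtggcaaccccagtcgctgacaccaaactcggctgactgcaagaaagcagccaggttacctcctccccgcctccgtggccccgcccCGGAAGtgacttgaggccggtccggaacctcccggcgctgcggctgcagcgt

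Letters were sought on both strands of the 250 bases. CGGAAG is in the window of 17 of the 36 members (47.2%) and of 15.3% of all 27025 genes with a promoter. The androgen-response palindrome, AGAACA followed after 3 bases by its reverse complement, is in 0 members and in 0.0111% of all genes. Its part AGAACA is in 4 members (11.1%, against 18.2%). TGACNNNGC, the core letters of antioxidant-response elements, is in 5 (13.9%, against 11.5%), and GAAA repeated after 2 bases, as in interferon-response elements, in 3 (8.33%, against 3.46%). CCAAT is in 13 (36.1%, against 37.5%). A match is a description of letters, and the absence of a match says only that the letters are not in these windows.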

How the data were processed

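Reads were counted per gene by the authors, and the deposited values are these raw counts, used here as counts. The submitters' processing notes name STAR 2.7.1b, SAMtools 1.9, Picard 2.20.2, featureCounts of Subread 2.0.0 and GRCm39. Libraries held 26.7 to 55.4 M counts in the ORX and 34.8 to 53.9 M in the DHT experiment, and the lowest count of a member was 65. Each experiment was fitted by itself with edgeR 4.0.16 in R 4.3.3: TMM scaling, 1 mean per group, a two-sided quasi-likelihood F test and Benjamini-Hochberg adjustment over all genes. Asking for 0.5 CPM in 2 or more libraries removed no gene. Alternatives were library-size scaling, DESeq2 1.42.0, limma-voom (limma 3.58.1), at least 10 counts in every library, a threshold of 0.05, a term for the replicate number (ORX experiment) and leaving out each library in turn. Leaving out KO-empty mouse 61 for the immunoproteasome, interferon and marker genes and the coefficients of variation, and running the alternatives on list and marker genes outside the rule below, were chosen after seeing the data. No paired analysis was run for the DHT experiment, whose columns carry mouse numbers but no replicate number. Whether mice with neighbouring numbers are alike was not tested. In the ORX experiment libraries with the same number were checked for likeness: across genes, the mean Pearson correlation of their residuals was 0.01 over 33 pairs, and -0.00196 over 165 pairs of unlike number.

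Named are the members called in a comparison (at most 8), Psmb8 to Psmb10, Psme1 to Psme4, Psmf1, the highest and lowest member of each class, up to 3 called genes per list and comparison, Nfe2l1, Pomp, Fbxo32, Trim63 and Actn3. Other genes and comparisons named, among them Zfand5 with DHT in WT, Asb5 in males, Gbp7, Psmd7, the marker genes and members called under an alternative alone, were chosen after their values were seen. The lists are assembly factors, shuttle proteins, proteasome gene regulators, ubiquitin and E1 genes, VCP and cofactors, muscle ligases, antigen presentation and interferon genes, and markers of fast and slow fibres, leukocytes, macrophages, lymphocytes, endothelium, fibroblasts, adipocytes and Schwann cells. Members and lists were chosen with earlier results of these data known. Values of some list genes are not reported here. The code was tested on simulated data. Figures used Python 3.11.15 and matplotlib 3.10.9.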

Additional observations from a re-analysis of the deposited data

Results flagged for a closer look

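For 22 measures (18 genes and 4 class sums) the highest and the lowest library of each of the 8 groups was compared with the nearest other library, as the gap divided by the range of the group. Of 176 such groups, 12 held a library past the 95% critical value of Dixon's test, and chance gives about 1 in 20. Of these 12, 6 are KO-empty mouse 61, which is far above its group for Psmb8 (25.4 CPM, next 4.46), Psmb9 (23.7, next 4.97), Psmb10 (49.4, next 11.3), the sum of these genes (98.5, next 20.7), Psme1 (45.6, next 20.6) and Psme2 (14.4, next 6.81). KO-ORX replicate 3 lay above its group, past the critical value, for Psmb9 (6.27 CPM, next 3.73) and for the sum of the regulatory genes (2099, next 2003). The others are Psmc3 in WT-empty mouse 4 (192 CPM, next 167), Psme2 in WT-sham replicate 2 (7.03, next 6.21), the sum of the regulatory genes in KO-DHT mouse 40 (2209, next 2004) and Psme3 in WT-DHT mouse 39, which lay below its group (19.3, next 25.9).

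Among the members and the genes of the pathway lists, the effect of DHT differed between the genotypes for 2, by the interaction test of edgeR. They are 1 of the 42 members and 1 of the 11 regulator genes. In the other pathway lists (5, 17, 6, 9, 15 and 18 genes) 0 were called, and 3.24% of all genes were. For Psmd8 the difference of the log2 changes was -0.51, a call lost without WT-empty mouse 35 or 49 (q = 0.0554 and 0.0510) or KO-empty mouse 17 or 61 (q = 0.0643 and 0.0510). For Nfyb it was 0.45, a call kept on leaving out any 1 of the 22 libraries.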

How the results depend on the processing

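For the 24 member values that were called, 652 values under alternatives kept their direction, and 608 of them kept the call. Of the 44 that lost it, 38 left out 1 library (of 542), 5 used library-size scaling (of 24) and 1 the replicate term (of 14), and DESeq2, limma-voom and the stricter filter lost 0. Of 65 calls of pathway list genes, library-size scaling lost 27, the replicate term 6 (of 32), limma-voom 1, DESeq2 and the stricter filter 0, and 25 were lost on leaving out some 1 library. Of 31 calls of marker genes these numbers were 11, 1 (of 19), 2, 0 and 1, and 15. None of these list calls turned its sign under library-size scaling or on leaving out a library. The number of members called moved by over 1.5 times in these cases. With library-size scaling it went from 3 to 1 for ORX in KO (all genes, 5.57% to 5.14%), from 1 to 0 for KO against WT in empty mice (4.25% to 3.14%) and from 3 to 8 for KO against WT in DHT mice (11.6% to 11.7%). With DESeq2 it went from 7 to 12 in sham (5.3% to 7.34%) and from 3 to 6 in DHT mice (11.6% to 14%). With a replicate term it went from 1 to 0 for KO against WT in ORX mice (3.8% to 3.58%). The looser threshold of 0.05 gave 12 in sham, 2 in ORX, 4 in empty and 10 in DHT mice, and 5 for DHT in KO, where 10.5%, 7.19%, 9.17%, 18.7% and 10.8% of all genes were called. The causes were not tested, except that a looser threshold admits more genes by construction.

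Leaving out 1 library gave 2 to 3 members for ORX in WT, 2 to 5 for ORX in KO (5 without KO-ORX replicate 3, which adds Psme1 and Psmd2), 6 to 10 for KO against WT in sham, 0 to 2 in ORX, 0 to 2 in empty and 3 to 5 in DHT mice (5 without WT-empty mouse 4 or KO-DHT mouse 63), 3 to 3 for DHT in WT, 2 to 2 for DHT in KO, 0 to 0 for the interaction with ORX and 0 to 1 with DHT. Genes at a few CPM, such as Psmb8 and Psmb9, are measured less closely than the others.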
